A study of Mus musculus with 9 samples.

Results

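The imprinted growth control genes are 10 mouse genes with some or all transcripts made mainly from the copy inherited from 1 parent in at least some tissues, and many of them regulate growth. They were Igf2, Igf2r, H19, Meg3, Dlk1, Grb10, Peg3, Plagl1, Ndn and Gnas. They were chosen by name and found by Ensembl identifier, and all 10 were present among the 52550 gene identifiers of the count table. RNA was sequenced from haematopoietic stem cells (HSCs), the marrow cells that renew all blood lineages, in 3 groups of 3 libraries. Old KO mice were 22 to 24 months old and carried the genotype B6N.129S6-Sphk2tm1Rlp/J, which the labels also call Sphk2 cKO without naming a Cre driver. Sphk2 encodes sphingosine kinase 2, which phosphorylates sphingosine. Old WT mice were wild type and of the same age range, and young WT mice were wild type and 2 months old. Each library came from 1000 cells sorted as Lin-, Sca1+, c-Kit+, CD48- and CD150+. The labels call the 3 libraries of a group technical replicates and name no mouse, so a p-value reflects only how much these samples vary, and that variation may be technical.

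In imprinted clusters, a control region methylated on 1 parental copy sets which copy of the nearby genes is silent. Igf2 is a fetal growth factor, and Igf2r, its decoy receptor, carries it to lysosomes. H19 is a non-coding RNA transcribed next to Igf2 from the other parental copy, and Dlk1 and Meg3 form a second such pair. In mouse marrow, H19 has been linked to the quiescence of adult stem cells, and Ndn restrains their proliferation.

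The libraries differed in how many of their reads lay in genes. Counts in genes lay between 11284847 and 17544945 in old KO, between 3145167 and 5115003 in old WT and between 28088637 and 74021822 in young WT libraries. Reads outside annotated genes made up 45.0% to 61.9% of old KO, 80.8% to 87.7% of old WT and 6.51% to 12.5% of young WT counts. Read density over the 1092 genes for olfactory receptors, proteins of the nose, served as the background of each library. As CPM (counts scaled to the total counts in genes) per kilobase of exon, it lay between 0.316 and 0.645 in old KO, 1.73 and 3.03 in old WT and 0.0162 and 0.0463 in young WT libraries. To be called above background, a gene needed 20 counts or more and 5 times or more the count expected over its exons from that density. Of 14 HSC markers, 11 in old KO, 0 in old WT and 12 in young WT were above background in at least 2 libraries, and their summed levels were 2257 to 3776, 768 to 2136 and 2343 to 2730 CPM. The old WT libraries thus carry the label of stem cells with none of these markers, among them Kit and Ly6a, the genes of 2 of the sorted proteins, above background in 2 libraries. Some were above background in 1 old WT library each: Esam (1486 CPM), Hlf (1372), Gata2 (592), Procr (446) and Slamf1 (306). Sphk2 itself had 8 to 23 counts in old KO, 1 to 35 in old WT and 88 to 1684 in young WT libraries, and was above background in young WT libraries only, so it does not check the KO label. In bulk libraries, fewer cells of a type and less RNA per cell cannot be told apart.

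Promoter sequences are shown for the 4 members above background in the most libraries, Grb10 in 6, Meg3 and Dlk1 in 5 each and Igf2r in 4. Each is the RefSeq window of 250 bases before to 50 bases after an annotated start in GRCm38.p6, and for Grb10 and Meg3, which have a second window, the one farther upstream. Capitals mark TGCCGC, the letters bound by the imprint-protecting zinc finger protein ZFP57, on either strand (GCGGCA on the strand printed).
Grb10 (chr11:12037371-12037670, minus strand): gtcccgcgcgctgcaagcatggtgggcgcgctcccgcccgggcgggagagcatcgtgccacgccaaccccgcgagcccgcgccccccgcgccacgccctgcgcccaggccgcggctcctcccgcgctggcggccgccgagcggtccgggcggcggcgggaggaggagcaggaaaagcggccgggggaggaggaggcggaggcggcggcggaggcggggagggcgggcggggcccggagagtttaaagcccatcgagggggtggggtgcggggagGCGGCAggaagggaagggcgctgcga
Meg3 (chr12:109540746-109541045, plus strand): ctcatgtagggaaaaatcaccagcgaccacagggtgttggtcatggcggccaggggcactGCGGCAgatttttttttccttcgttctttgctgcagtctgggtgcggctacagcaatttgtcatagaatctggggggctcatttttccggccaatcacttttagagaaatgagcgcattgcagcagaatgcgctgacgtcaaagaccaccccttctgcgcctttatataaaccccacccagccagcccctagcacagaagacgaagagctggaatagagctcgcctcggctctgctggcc
Dlk1 (chr12:109452573-109452872, plus strand): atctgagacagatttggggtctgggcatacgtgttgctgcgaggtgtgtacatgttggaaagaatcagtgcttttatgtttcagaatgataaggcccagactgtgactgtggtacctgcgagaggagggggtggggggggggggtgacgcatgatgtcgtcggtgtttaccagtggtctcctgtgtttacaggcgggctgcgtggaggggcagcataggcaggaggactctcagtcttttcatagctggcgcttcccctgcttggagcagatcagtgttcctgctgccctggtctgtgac
Igf2r (chr17:12769657-12769956, minus strand): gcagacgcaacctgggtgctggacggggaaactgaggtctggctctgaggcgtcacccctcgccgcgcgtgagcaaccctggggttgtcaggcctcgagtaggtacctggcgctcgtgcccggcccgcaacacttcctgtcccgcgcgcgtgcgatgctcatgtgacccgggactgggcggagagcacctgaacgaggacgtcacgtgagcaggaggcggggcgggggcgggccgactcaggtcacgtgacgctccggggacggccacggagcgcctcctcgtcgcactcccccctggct
The printed Grb10 and Meg3 windows each held 1 match to TGCCGC, and the Dlk1 and Igf2r windows none, against 11.6% of all 32851 promoter windows with at least 1. The second windows of Grb10 and Meg3, not printed, held 0 matches. TGCCGC contains a CpG, and the 11.6% is over all windows whatever their CpG number. The core motif of the insulator protein CTCF, also sought on both strands, was in none of the 4 and in 0.122% of all windows. The printed windows held 45 CpG dinucleotides in Grb10, 34 in Igf2r, 13 in Meg3 and 9 in Dlk1, against a median of 7 over all windows. A match describes the letters and not a bound site, and DNA methylation was not measured.

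**Figure D1:**
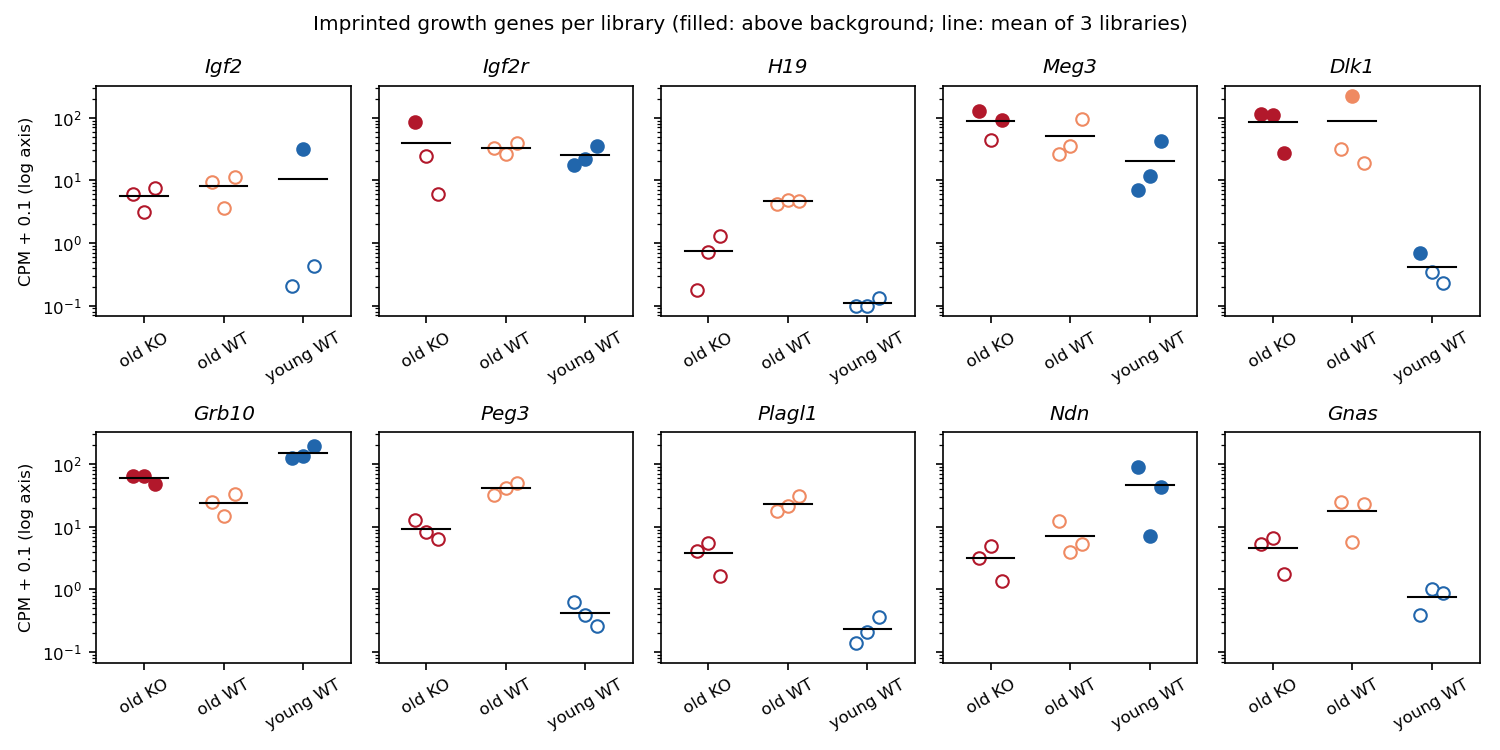
Levels of the 10 imprinted growth control genes in each library, as CPM plus 0.1 on a log axis, for old KO, old WT and young WT (3 libraries each). Filled points are above background and lines mark group means; Grb10 is filled in all old KO and all young WT libraries and in no old WT library, and H19, Peg3, Plagl1 and Gnas are open throughout.

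Of the 10 members, 4, 2 and 3 exceeded background in old KO libraries 1 to 3, 0, 1 and 0 in old WT libraries 1 to 3, and 5, 5 and 4 in young WT libraries 1 to 3. Of 21819 protein-coding genes, 13.2% to 19.1% were above background in old KO, 2.92% to 5.16% in old WT and 33.8% to 37.2% in young WT. The members present differed by group. Grb10, Ndn, Igf2r and Meg3 were above background in every young WT library, and Dlk1 and Grb10 in every old KO library. Dlk1 in old WT library 2 was the one case in old WT.

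Per kb of exon, young WT HSCs had the highest mean level for Grb10 (16.7 ± 4.30 CPM per kb, SD, n = 3), followed by Ndn (12.8 ± 11.4), whose range overlapped that of Grb10. Igf2r (2.67 ± 1.01), Igf2 (1.85 ± 3.13) and Meg3 (1.13 ± 1.07) came next on the same scale and did not differ beyond their spread. In old KO the order began with Dlk1 (14.8 ± 8.73 CPM per kb), then Grb10 (6.52 ± 1.06), Meg3 (4.86 ± 2.36) and Igf2r (4.18 ± 4.55), and the SDs of neighbours overlapped. In old WT, Dlk1 averaged 15.8 ± 19.7 CPM per kb through 1 library, and the other 9 members averaged between 1.40 and 3.54, near the background of 1.73 to 3.03.

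**Figure D2:**
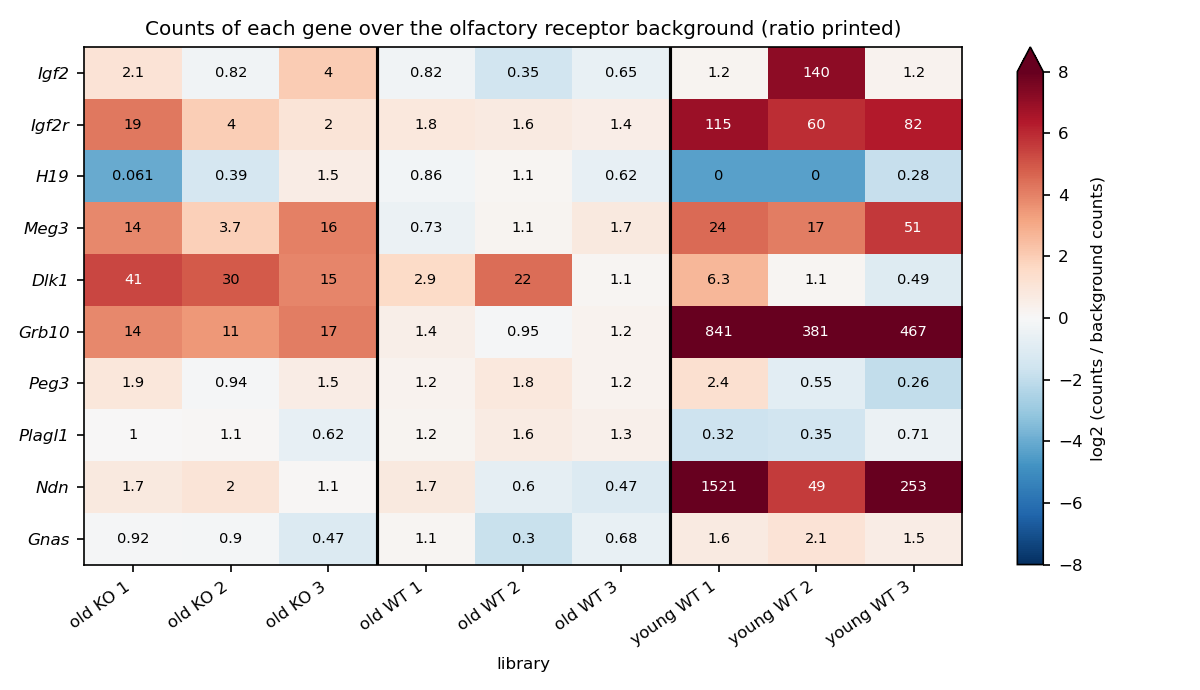
Counts of each gene divided by the counts that the olfactory receptor density gives over its exons, printed for each library and coloured on a log2 scale whose darkest red also holds higher ratios and on which a ratio of 0 has a fixed light blue (old KO left, old WT centre, young WT right). Ratios of the 9 members other than Dlk1 lie at or below 1.81 in old WT, whereas Grb10 reaches 381 to 841 in young WT.

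Grb10, an adaptor that binds insulin and IGF receptors and dampens their signal, was the most regular member (chromosome 11, 11930508 to 12038683, minus strand, GRCm38; ENSMUSG00000020176). It had 64.9, 64.8 and 48.2 CPM in old KO libraries, 24.6, 14.9 and 33.4 CPM in old WT libraries and 124, 135 and 196 CPM in young WT libraries. The 3 groups did not overlap, with old KO between old WT and young WT. Against background its counts were 11.0 to 16.8 times in old KO, 0.950 to 1.39 times in old WT and 381 to 841 times in young WT. In old WT its reads were thus at the density of the background, and the gap to young WT is given below as fitted.

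Ndn encodes necdin, a MAGE family growth suppressor that in mice restrains HSC proliferation (chromosome 7, 62346569 to 62350262, plus strand; ENSMUSG00000033585). It had 3.12, 4.87 and 1.25 CPM in old KO, 12.1, 3.82 and 5.22 CPM in old WT and 91.1, 7.08 and 43.2 CPM in young WT libraries. Only the young WT libraries were above background, at 49.3 to 1521 times. They spanned a wide range, and the lowest of them, 7.08 CPM, lay under the highest old WT library.

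Dlk1, a transmembrane protein related to Notch ligands, was high in the old KO libraries (chromosome 12, 109452823 to 109463336, plus strand; ENSMUSG00000040856). Its levels were 116, 109 and 26.9 CPM in old KO, 31.7, 218 and 19.1 CPM in old WT and 0.581, 0.249 and 0.129 CPM in young WT libraries. All old libraries lay above all young WT libraries, and old KO and old WT overlapped. Its counts were 15.0 to 41.3 times background in old KO, 22.3 times in old WT library 2, 2.88 and 1.12 times in the other old WT libraries, and 6.33, 1.13 and 0.492 times in young WT. Stromal cells of marrow can carry Dlk1, so the 14 stromal markers are given beside it. They summed to 255, 100 and 44.1 CPM in old KO, 219, 227 and 374 CPM in old WT and 97.5, 60.3 and 43.1 CPM in young WT libraries. Above background in at least 2 libraries were 0 of the 14 in old KO, 0 in old WT and 1 in young WT, and Runx2 gave 200 of the 255 CPM in old KO library 1. Runx2 was above background in 1 old KO and 3 young WT libraries and Pdgfrb in 1 young WT library, and the other stromal markers in none. In old WT, 0 of the 14 HSC markers met the rule of 2 libraries either. Whether stromal cells carried the Dlk1 reads was not tested.

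Meg3, the non-coding RNA of the Dlk1 cluster, exceeded background in each young WT library and in old KO libraries 1 and 3 (chromosome 12, 109541001 to 109571726, plus strand; ENSMUSG00000021268). It had 128, 43.1 and 92.5 CPM in old KO, 25.8, 35.6 and 93.4 CPM in old WT and 6.90, 11.8 and 42.6 CPM in young WT libraries. Old KO lay above young WT by a narrow margin and overlapped old WT. Counts over background ran the other way for the 2 WT groups, at 3.69 to 16.2 times in old KO, 0.733 to 1.71 times in old WT and 16.8 to 50.9 times in young WT. The 6 neighbours listed for the Dlk1 and Meg3 cluster, among them Rian, Mirg and Rtl1, were above background in at least 2 libraries of no group. Meg3 shares 6.79% of its exon bases with Gm26906 on the other strand, which had 0 counts in all libraries.

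Igf2r had 86.6, 23.9 and 6.04 CPM in old KO, 32.5, 26.4 and 40.0 CPM in old WT and 17.4, 21.6 and 35.4 CPM in young WT libraries (chromosome 17, 12682406 to 12769664, minus strand; ENSMUSG00000023830). The groups overlapped in each comparison. Only old KO library 1, at 18.8 times, and the young WT libraries, at 59.8 to 115 times, were above background. Igf2, its ligand, was seen in a single library (chromosome 7, 142650766 to 142666816, minus strand; ENSMUSG00000048583). It had 5.94, 3.01 and 7.30 CPM in old KO, 9.19, 3.50 and 11.3 CPM in old WT and 0.108, 31.3 and 0.322 CPM in young WT libraries, and only young WT library 2, with 878 counts, was above background. Of its exon bases 62.8% also belong, in the annotation used here, to Gm49394 on the same strand. Gm49394 is not among the gene identifiers that were counted, and whether the overlap bears on the Igf2 count was not tested.

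H19, Peg3, Plagl1 and Gnas were above background in 0 of 9 libraries. H19 had 1, 7 and 21 counts in old KO, 21, 15 and 16 in old WT and 0, 0 and 1 in young WT libraries. Peg3, a zinc finger protein, had 170, 91 and 111 counts in old KO, 162, 131 and 172 in old WT and 39, 8 and 5 in young WT libraries. Those counts amount to 0.938 to 1.91 times background in old KO, 1.22 to 1.81 times in old WT and 0.261 to 2.44 times in young WT. Plagl1, a zinc finger factor that regulates other imprinted genes in mice, had 53, 62 and 27 counts in old KO, 90, 67 and 107 in old WT and 3, 3 and 8 in young WT libraries. For these genes the CPM was highest in old WT, the group with the highest background, and transcripts were not detectable at this depth.

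Gnas encodes the stimulatory G protein alpha subunit and had 69, 73 and 29 counts in old KO, 125, 18 and 79 in old WT and 22, 26 and 24 in young WT libraries (chromosome 2, 174284320 to 174346744, plus strand; ENSMUSG00000027523). Its count is uncertain. Of its exon bases 13.1% are shared with Gm20721 on the other strand, and over its 24 transcripts the share runs from 0% to 85.4% with a median of 36.2%. Reads there may be set aside as ambiguous where strand is not used. Gm20721 had 2 counts in old KO library 2 and 0 in the others, and the ambiguous share was 2.07% to 2.98% in old KO, 0.619% to 1.03% in old WT and 5.37% to 5.48% in young WT. The part of this overlap in the low Gnas count was not tested.

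Old WT was set against young WT, groups that differ in age. Their libraries also differ in depth and in reads outside genes, so the parts of age and library cannot be told apart. The words fell and rose describe fitted values only. With edgeR's quasi-likelihood test and TMM factors, which scale libraries on the bulk of genes, 7 of 10 members passed a Benjamini-Hochberg adjusted p of 0.05, against 37.0% of the 32582 genes tested. Grb10, Ndn and Igf2r fell, and H19, Dlk1, Peg3 and Plagl1 rose, beside backgrounds of 18.4% called lower and 18.6% called higher. Grb10 changed by -6.72 ± 1.22 on the log2 scale (SE, n = 3 each; edgeR adjusted p = 0.00569) and Ndn by -6.98 ± 1.58 (edgeR adjusted p = 0.00928). Igf2r changed by -3.61 ± 1.29 (edgeR adjusted p = 0.0408). The higher calls were H19 at 4.72 ± 1.48 (edgeR adjusted p = 0.0270), Dlk1 at 4.12 ± 1.51 (0.0442), Plagl1 at 3.50 ± 0.87 (0.0128) and Peg3 at 2.77 ± 1.04 (0.0481). None of the 4 was above background in 2 old WT libraries, and of all 6062 genes called higher 99.2% were not, whereas 95.5% of the 5996 called lower exceeded it in 2 or more young WT libraries.

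Scaling moved these values. The median gene had a fold change 3.90 log2 units lower with TMM than with total counts; its TMM value was 1.37, beside -0.98 over the members. With total counts 6 members were called, against 71.9% of genes: H19, Dlk1, Peg3, Plagl1 and Gnas higher (68.4% of genes) and Grb10 lower (3.48%). Grb10 stayed lower at -2.64 ± 1.04 (edgeR adjusted p = 0.0306), Ndn was at -2.73 ± 1.24 (0.0580) and Igf2r turned to 0.41 ± 1.14 (0.764). With background subtracted, 5 members could be tested and 0 were called, against 0.139% of 8620 genes, with 2 at an unadjusted p under 0.05 in edgeR (20.3% of genes). DESeq2 on the deposited counts called 8 of the 9 members it gave an adjusted p, against 56.5% of genes. Without single libraries the Grb10, Ndn and Plagl1 calls held in all 9 fits. Igf2r lost its call without young WT library 3 or any old WT library, and H19 without young WT library 1 or 2 or any old WT library. Dlk1 kept its call only without young WT library 1 and was at 1.90 without old WT library 2, and Peg3 also kept its call only without young WT library 1. H19 had 1 count in all young WT libraries, so its fitted value depends on the prior count; the ratio of its summed share in old WT to that in young WT was 591, with an exact 95% interval of 102 to 23799 that covers counting error only. By CPM, 6 members had ranges that did not overlap, against 70.9% of all genes: H19, Dlk1, Peg3, Plagl1 and Gnas were higher (65.0%) and Grb10 was lower (5.87%). The exact 2-sided permutation test of 3 against 3 libraries gave p = 0.1 for each, the smallest it allows.

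**Figure D3:**
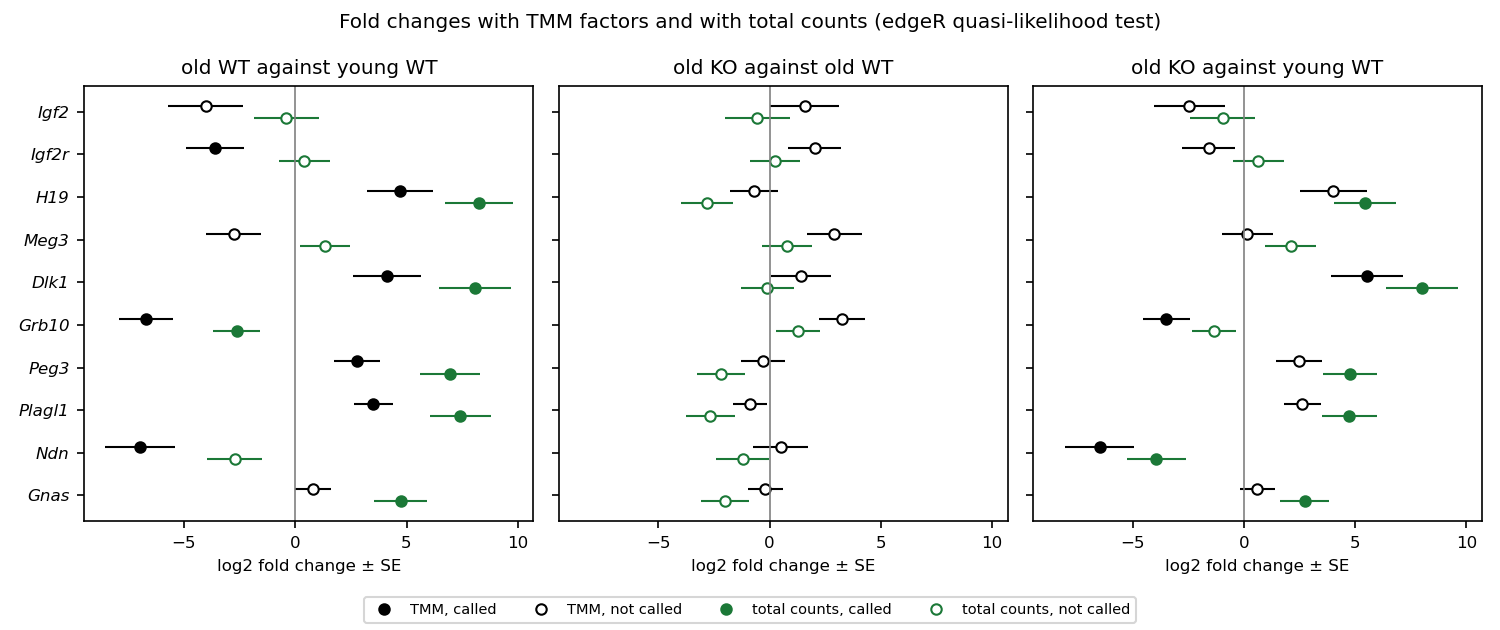
Log2 fold changes ± SE of the 10 genes in the 3 comparisons, with TMM factors (black) and with total counts (green), filled where the edgeR adjusted p was under 0.05. Igf2r and Meg3 change sign between the scalings in old WT against young WT, and no point is filled in old KO against old WT.

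Old KO was set against old WT, groups of the same age range that differ in the Sphk2 genotype. Their libraries also differ in depth and in reads outside genes, so the parts of genotype and library cannot be told apart. No member was called: 0 of 10, against 0.457% of all genes, of which all 149 were higher. At an unadjusted p under 0.05, 2 members were seen in edgeR, against 11.8% of genes, and DESeq2 called 2 of the 8 it gave an adjusted p, against 20.6% of genes. Grb10 was at 3.24 ± 1.04 on the log2 scale (SE, n = 3 each; edgeR adjusted p = 0.192) and Meg3 at 2.91 ± 1.24 (edgeR adjusted p = 0.346). With total counts 0 members were called, against 0.00614% of genes, and with background subtracted 0 of 5 tested, against 0.162%. Grb10 and Meg3 with total counts were at 1.29 ± 0.99 (edgeR adjusted p = 0.311) and 0.77 ± 1.12 (0.573). By CPM, 4 members had ranges apart, against 50.7% of all genes. Grb10 was higher in all 3 old KO libraries, a direction that 1.91% of genes showed, and H19, Peg3 and Plagl1 were lower, as were 48.8% of genes. The mean of Grb10 was 59.3 ± 9.62 CPM in old KO, against 24.3 ± 9.21 CPM for old WT (SD, n = 3 each; exact permutation p = 0.1). The olfactory background beside it was lower in every old KO library than in any old WT library. Dlk1 did not separate the groups (1.42 ± 1.35, edgeR adjusted p = 0.934; -0.10 ± 1.19 with total counts).

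Old KO was also set against young WT, a comparison that shares its young WT libraries with that of old WT against young WT. Old KO and young WT differ in age, genotype, depth and reads outside genes together, so the parts of these cannot be told apart here. Dlk1 rose and Grb10 and Ndn fell, 3 of 10 members against 12.8% of all genes (6.92% higher, 5.84% lower). Dlk1 changed by 5.54 ± 1.61 (SE, n = 3 each; edgeR adjusted p = 0.0417), Grb10 by -3.48 ± 1.05 (edgeR adjusted p = 0.0447) and Ndn by -6.48 ± 1.55 (edgeR adjusted p = 0.0319). Dlk1 was above background in all old KO libraries, and its mean was 83.8 ± 49.4 CPM in old KO and 0.320 ± 0.234 CPM in young WT (SD, n = 3 each). With total counts 6 members were called (56.6% of genes), 5 of them higher (52.7%) and Ndn lower at -3.93 ± 1.31 (3.93%), and with background subtracted 0 of 5 tested (0.0464% of genes). With total counts Grb10 was at -1.36 ± 0.99 (edgeR adjusted p = 0.245). The Dlk1 and Grb10 calls were lost in each of the 9 fits that left out a library, with Dlk1 between 5.03 and 6.78 and Grb10 between -3.78 and -3.40, and the Ndn call without any old KO library. By CPM 8 members had ranges apart, against 57.6% of genes: 6 higher (53.5%) and 2, Grb10 and Ndn, lower (4.06%).

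**Figure D4:**
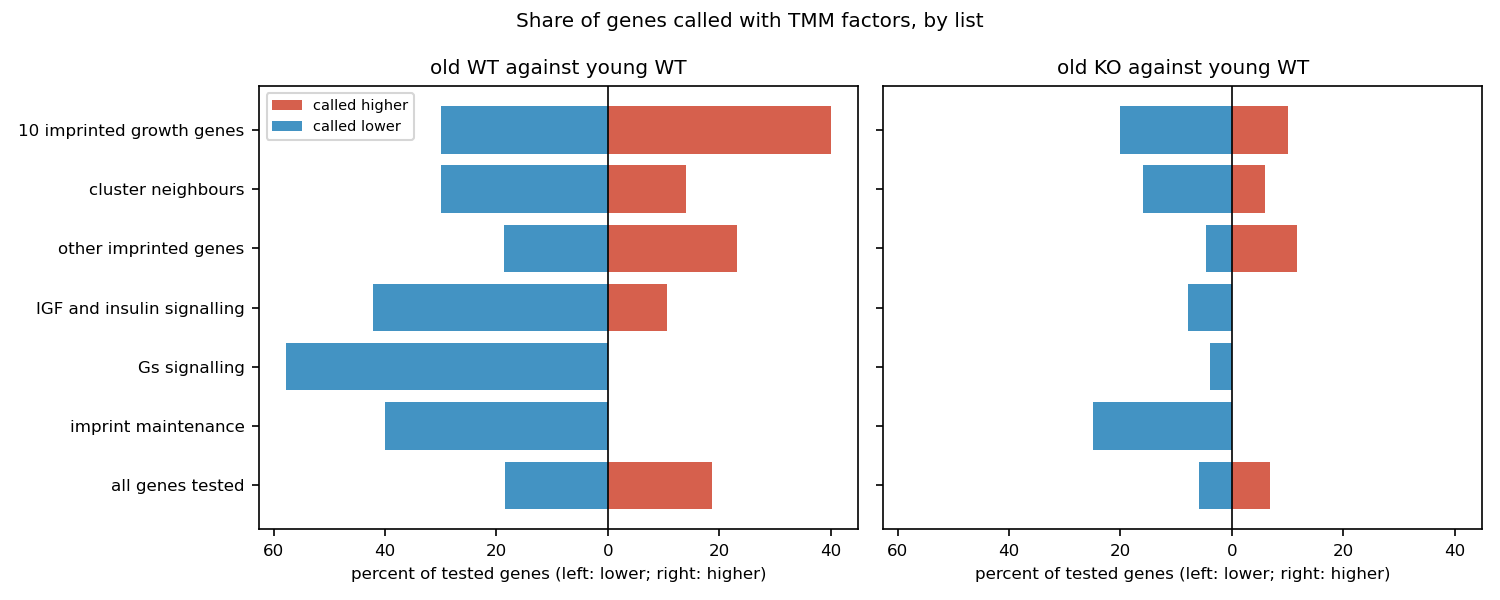
Percent of tested genes called lower (left of 0) or higher (right of 0) with TMM factors, for the 10 members, 5 related lists and all genes, in old WT against young WT and old KO against young WT. Gs signalling has no higher call in either panel.

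Genes around the members and in their pathways were listed as well, in 5 lists whose calls depend on the scaling. Several genes, among them Cdkn1c, Rian and Ube3a, stand in both the cluster neighbour and the other imprinted lists. The calls of those lists are therefore not separate observations. With TMM factors the median log2 fold change in old WT against young WT was 0.67 for cluster neighbours, 0.83 for other imprinted genes, -3.57 for IGF and insulin signalling, -4.94 for Gs signalling and -3.69 for imprint maintenance, beside 1.37 over all genes. With total counts those medians were 4.64, 4.88, 0.30, -0.64 and 0.08 for the lists as named, beside 5.30 over all genes. The calls in the next paragraphs are with TMM factors, and in old KO against old WT 0 genes were called in 4 of the 5 lists. They stand beside 18.4% of all genes called lower and 18.6% called higher in old WT against young WT, and 5.84% lower and 6.92% higher in old KO against young WT. Of the genes called lower in old WT, 95.5% were above background in 2 or more young WT libraries. In young WT, 23 of 38 IGF and insulin signalling, 21 of 26 Gs signalling and 13 of 20 imprint maintenance genes were above it. For cluster neighbours it was 19 of 53 found, and for other imprinted genes 13 of 44. No share over genes of like level was computed, so a larger share called lower is not shown to be particular to a list. None of the 21 list calls that were higher in old WT and none of the 8 in old KO, counted list by list, was on a gene above background in 2 libraries of that group. Genes are named only if above background in at least 2 libraries of a group, and none of those higher calls is on a named gene, so the named genes do not show the balance of directions. Of the 27 calls on named genes, 15 were lost with total counts and 12 held in all 9 fits without single libraries. Lost with total counts in old WT against young WT were Trappc9, Peg13, Blcap, Cdkn1c, Pik3r1, Shc1, Gnb2, Akap13, Dnmt1, Cbx5 and Dnmt3a. In old KO against young WT they were Tspan32, Ctsz and Grb2, and in old KO against old WT Gnb1. The 7 calls on named genes in old KO against young WT were each lost without any of the old KO libraries.

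Of 50 tested neighbours in the members' clusters, 15 (30%) fell and 7 (14%) rose in old WT against young WT, and 8 (16%) fell and 3 (6%) rose in old KO against young WT. Tspan32, a tetraspanin near H19 and Igf2, had 91.9 ± 113 CPM in old KO, 16.2 ± 7.48 in old WT and 374 ± 252 in young WT (SD, n = 3 each), and Tcp1, a chaperonin subunit beside Igf2r, had 234 ± 196 CPM in old KO, 11.4 ± 2.60 in old WT and 173 ± 30.9 in young WT. Sf3b5, a splicing factor subunit beside Plagl1, had 182 ± 153 CPM in old KO, 30.7 ± 33.0 in old WT and 290 ± 81.6 in young WT. Those 3 fell in old WT against young WT (edgeR adjusted p = 0.00602, 0.00658 and 0.00782). Ctsz, a lysosomal protease gene near Gnas, fell in old KO against young WT (-7.07 ± 2.18, edgeR adjusted p = 0.0469). It had 2.30, 4.79 and 0.456 CPM in old KO and 131, 9.08 and 10.3 CPM in young WT libraries. Its call held in 3 of the 9 fits without single libraries and was lost without young WT library 1.

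Of 43 other imprinted genes tested, 8 (18.6%) fell and 10 (23.3%) rose in old WT against young WT, and 2 (4.65%) fell and 5 (11.6%) rose in old KO against young WT. Trappc9 had 50.6 ± 33.9 CPM in old KO, 16.7 ± 3.24 in old WT and 68.6 ± 49.5 in young WT, and it fell in old WT (-6.13 ± 1.36, edgeR adjusted p = 0.00878). Peg13, a non-coding RNA within Trappc9, fell in old WT (-6.10 ± 1.49, edgeR adjusted p = 0.0118) and in old KO (-6.42 ± 1.52, edgeR adjusted p = 0.0314) against young WT. Cdkn1c, the cell cycle inhibitor p57 that keeps mouse HSCs quiescent, had 4.98, 52.5 and 56.3 CPM in old KO, 1.17, 1.59 and 6.96 CPM in old WT and 0.135, 42.4 and 0.290 CPM in young WT libraries. It was above background in 2 old KO, 0 old WT and 1 young WT libraries, and it was called lower in old WT against young WT (-5.90 ± 2.03, edgeR adjusted p = 0.0361). Without young WT library 2, its high library there, the value was -0.52 and the call was lost. Blcap fell in old WT as well (-6.84 ± 1.93, edgeR adjusted p = 0.0188).

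Of 38 IGF and insulin signalling genes, 16 (42.1%) fell and 4 (10.5%) rose in old WT against young WT, and 3 (7.89%) fell and 0 rose in old KO against young WT. Grb2, the adaptor that links receptors to Ras, had 28.4 ± 36.8 CPM in old KO, 8.46 ± 5.23 in old WT and 174 ± 100 in young WT (SD, n = 3 each). It fell in old WT (-8.35 ± 1.52, edgeR adjusted p = 0.00563) and in old KO (-4.82 ± 1.29, edgeR adjusted p = 0.0363). Igfbp4, an IGF-binding protein, had 26.1 ± 37.9 CPM in old KO, 33.6 ± 41.8 in old WT and 312 ± 107 in young WT and fell in both. Pik3r1, the regulatory subunit of PI3 kinase, and Shc1 fell in old WT against young WT (-4.72 ± 1.16 and -4.69 ± 1.44, edgeR adjusted p = 0.0121 and 0.0251). With total counts they were at -0.70 and -0.95 (edgeR adjusted p = 0.527 and 0.504), neither called. For both genes the CPM ranges of old WT and young WT overlapped.

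Of 26 Gs signalling genes, which act with the Gnas product, 15 (57.7%) fell and 0 rose in old WT against young WT, and 1 (3.85%) fell and 0 rose in old KO against young WT. Gnb1, the G protein beta subunit, had 550 ± 461 CPM in old KO, 21.4 ± 3.67 in old WT and 240 ± 104 in young WT, and was the one gene of the 5 lists to pass in old KO against old WT (6.59 ± 1.26, edgeR adjusted p = 0.0358). That call was lost with total counts (4.69 ± 1.09, edgeR adjusted p = 0.146) and in 7 of the 9 fits without single libraries. Pde4b, a phosphodiesterase that breaks down cyclic AMP, had 491 ± 271 CPM in old KO, 38.3 ± 8.91 in old WT and 272 ± 197 in young WT. It fell in old WT against young WT (-7.06, edgeR adjusted p = 0.00592). In old KO against old WT it was at 5.79 ± 1.27 and not called (edgeR adjusted p = 0.0581). Gnb2 and Akap13 fell in old WT against young WT (edgeR adjusted p = 0.00996 and 0.0152).

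Of 20 imprint maintenance genes, 8 (40%) fell and 0 rose in old WT against young WT, and 5 (25%) fell and 0 rose in old KO against young WT. Trim28, the corepressor that ZFP57 recruits, had 294 ± 111 CPM in old KO, 23.2 ± 14.0 in old WT and 488 ± 304 in young WT and fell in old WT (-8.63 ± 1.41, edgeR adjusted p = 0.00514). Dnmt1, the maintenance DNA methyltransferase, had 6.79 ± 2.53 CPM in old KO, 35.6 ± 20.5 in old WT and 177 ± 165 in young WT. It was above background in no old library and fell in old KO (-6.86 ± 1.31, edgeR adjusted p = 0.0298) and in old WT (-6.43 ± 1.29, edgeR adjusted p = 0.00652). Cbx5, a heterochromatin protein, fell in both. Dnmt3a, a de novo methyltransferase, had 12.2, 16.7 and 34.3 CPM in old KO, 60.4, 31.5 and 63.2 CPM in old WT and 227, 2.46 and 4.70 CPM in young WT libraries. It was called lower in old WT (-5.10 ± 1.75, edgeR adjusted p = 0.0359), although only young WT library 1 lay above the old WT libraries and the other young WT libraries lay below all of them. Without young WT library 1 it was at -0.07, and with total counts at -0.59 ± 1.39 (edgeR adjusted p = 0.719), neither called. With total counts the called lower numbers in old WT became 7, 1, 2, 4 and 2 for the lists in the order given, and the higher numbers 28, 26, 12, 2 and 6. In old KO against young WT they became 4, 2, 2, 0 and 3 lower and 24, 22, 11, 1 and 3 higher.

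For the 3 members with the highest young WT level, the genes with the most similar pattern over the 9 libraries were sought among 5863 genes above background in every young WT library, by the root mean square difference of centred log2(CPM + 1). For Grb10 they were Runx1 (0.369), Cdkn1b (0.492) and Gm4366 (0.496). Runx1 had 115 CPM in old KO, 32.4 in old WT and 208 in young WT on average. For Ndn they were Iffo1 (0.399), Hells (0.418) and Angel2 (0.459), and for Igf2r Lrp6 (0.330), Gm2991 (0.506) and Agap2 (0.543). All 9 libraries share the depth and background differences given above, and likeness here is a description.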

How the data were processed

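Values came from a single deposited table of raw counts, 1 row per gene and 1 column for each of 9 libraries. The submitters' processing notes list the build mm10 and, without roles, edgeR 3.24.3, HTSeq 0.10.0, STAR 2.6.1d and Trim Galore 0.6.2; annotation and strand setting are not given there. The 5 lines of the table that name no gene stayed out of library sizes and tests, with the shares given in the report. Symbols, exon lengths and coordinates came from GENCODE M21 (GRCm38), and 52403 of 52550 identifiers had a symbol. CPM were computed here as counts over total counts in genes. The main test was edgeR 4.0.16 (quasi-likelihood, TMM, filterByExpr with the groups, R 4.3.3) on all 9 libraries and 32582 genes, with Benjamini-Hochberg adjustment over all of them at 0.05. A positive fold change means higher in the group named first. Background excluded the densest 1% of olfactory receptor genes. Alternatives were other scalings, DESeq2 1.42.0, other filters, background subtraction, a replicate block, the 6 compared libraries, a threshold of 0.01 and leaving out each library. Fits were also run on simulated counts that lack the background differences between these groups, so that run does not show how the fits perform here. Named from each list were genes called in any comparison and above background in at least 2 libraries of a group, up to 4 by highest group mean CPM; old WT had at most 1 such gene in a list, so names come mainly from genes high in young WT or old KO. The members and lists were chosen with earlier results of these data known. No libraries of a group agreed within sampling noise, so none was taken for a library deposited more than once; this does not show that they came from separate mice, and n counts libraries. Intervals cover counting error only, since reads carry no molecular identifiers.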

Additional observations from a re-analysis of the deposited data

How the results depend on the processing

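Of 517 fold changes of members recomputed under the alternatives, 405 kept their direction and side of the threshold, 72 lost and 20 gained a call, and 20 changed sign; where no cause is given, the cause was not tested. With total counts the sign turned in old WT against young WT for Igf2r (0.41) and Meg3 (1.33), in old KO against old WT for Igf2 (-0.56), Dlk1 (-0.10) and Ndn (-1.20), and in old KO against young WT for Igf2r (0.65). With at least 50 counts in 3 libraries it turned for Meg3 in old WT against young WT (0.44) and for Igf2 (0.14) and Igf2r (1.32) in old KO against young WT. With background subtracted it turned for Meg3 in old WT against young WT (0.17), Ndn in old KO against old WT (-0.21) and Igf2r in old KO against young WT (1.17). Without young WT library 2, Igf2 turned in both comparisons with young WT (0.97 for old WT, within -4.71 to 0.97 over the fits without single libraries; 2.57 for old KO, within -3.17 to 2.57), and that library alone held it above background. Gnas turned in old KO against old WT without old WT library 1 (0.35) or old KO library 3 (0.11), within -0.53 to 0.35. Meg3 turned in old KO against young WT without young WT library 1 (-0.21) or 2 (-0.25) or old KO library 1 (-0.09) or 3 (-0.22), within -0.25 to 1.17.

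Called genes in old WT against young WT were 12058, and 23414 with total counts, 4223 with at least 50 counts, 12 with background subtracted, 7076 with the replicate block, 1874 at 0.01, and 3696 to 11412 without single libraries. Called members were 7, and 4 with no filter, 0 with background subtracted, 4 with the replicate block, 2 at 0.01, and 3 to 7 without single libraries. In old KO against old WT 149 genes became 2 with total counts, upper-quartile or RLE factors, the replicate block or 0.01, 2134 with DESeq2, 271 with no filter, 246 with at least 50 counts, 14 with background subtracted, 0 with the 6 libraries, and 0 to 185 without single libraries; members stayed at 0 except 2 with DESeq2. In old KO against young WT 4158 genes became 18438 with total counts, 9154 with DESeq2, 4 with background subtracted, 0 with the replicate block or 0.01, and 0 to 4483 without single libraries. Its 3 called members became 6 with total counts or DESeq2, 5 with at least 50 counts, 0 with background subtracted, the replicate block or 0.01, and 0 to 2 without single libraries. At 2 times the background density, members above background became 5 in each old KO library (28.9%, 25.6% and 29.6% of protein-coding genes), 1, 1 and 0 in old WT libraries 1 to 3 (15.6%, 15.8% and 13.8%) and 6, 6 and 4 in young WT libraries 1 to 3 (40.9%, 39.7% and 38.7%). Of 483 recomputed values for the 27 calls on named list genes, 348 kept their call, 135 lost it and 0 changed sign. No pairing by replicate number was seen, as the 9 correlations of same-numbered libraries lay between -0.03 and 0.02. Libraries of a group differed far beyond sampling noise, so these correlations cannot exclude a pairing. The old WT libraries, with the fewest counts in genes and the highest background, limit what can be said of any member there.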
